A study of Mus musculus with 24 samples.

Results

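The genes described here are 5 type I interferon genes of the mouse, Ifnb1, Ifna2, Ifna4, Ifna5 and Ifna6. They were taken by symbol from a table of 24273 genes measured by RNA sequencing in 24 libraries of bone marrow-derived macrophages (BMDMs), cells matured from bone marrow in culture with L-cell conditioned medium. All mice were of the C57BL/6 strain and carried LysM-Cre, a Cre recombinase expressed from the lysozyme locus Lyz2 and therefore in myeloid cells. Control mice are LysM-Cre in the labels, while the study's text gives them a floxed Fos allele as well. The other genotype, FosKO, is LysM-Cre Fos fl/fl, in which Cre was meant to remove Fos, a subunit of the AP-1 transcription factor. The age of the mice is not given in the sources used here. BMDMs of each genotype were left unstimulated (0 h) or received the TLR4 ligand lipopolysaccharide (LPS) at 100 ng/ml for 0.5, 1 or 2 h. There were 3 libraries for each of these 8 groups. The study calls them biological replicates, but the sources do not say whether the 3 came from separate mice or cultures, so p-values measure the spread between these libraries. The study examined how the kinase TPL-2, which activates ERK, controls transcription in macrophages after TLR4 stimulation. These libraries addressed the part that FOS plays in the expression induced by LPS.

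Type I interferons are secreted cytokines that bind the receptor of IFNAR1 and IFNAR2 and switch on antiviral genes. In macrophages, LPS engages TLR4, and the adaptor TRIF (gene Ticam1) then activates the kinase TBK1, which phosphorylates the factor IRF3. Interferon beta, encoded by Ifnb1, is usually made first. Its short upstream enhancer is a textbook case of several factor families, interferon regulatory factors, NF-kB and AP-1 among them, assembling on the same DNA. The interferon alpha genes are a tandem family of close copies, and most of them depend on IRF7, which interferon itself induces. All members lack introns.

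The deposited values are log2 values, normalised by the authors, on which a difference of 1 is a doubling. They have no zeros and look regularised, since an interferon alpha gene with few reads sits at a nearly constant floor of its own (at 0 h in LysM-Cre 3.15 for Ifna2, 2.70 for Ifna4 and 2.03 for Ifna6). Such a floor is no measure of expression, and the change of a gene that starts at it may be understated. The number of reads behind each value is unknown, so the error given is the spread between libraries (SD, n = 3). Libraries of one group correlated at r between 0.995 and 0.999 across genes, which are not independent replicates. The targeted gene went against its label at 3 of the 4 times. Fos was 11.11 ± 0.05, 13.52 ± 0.08, 11.15 ± 0.17 and 9.52 ± 0.10 in LysM-Cre at 0, 0.5, 1 and 2 h, and 12.60 ± 0.17, 12.75 ± 0.09, 12.78 ± 0.10 and 12.80 ± 0.13 in the other genotype. It was thus lower in the FosKO-labelled libraries after 0.5 h (-0.77) and higher at the other 3 times. Its rise after 0.5 h of LPS was 2.41 in LysM-Cre and 0.15, not called, in the FosKO-labelled libraries, a difference in response of -2.26 (limma adjusted p 1.38e-09). Gene values cannot show whether an exon is missing, and the genotype is written as FosKO-labelled throughout. The 18S ribosomal RNA gene Rn18s-rs5 was lower (16.65 to 17.00) in 5 libraries after 0.5 and 1 h than in the other 19 (18.57 to 19.39), and values within these sets are given below for both times. Of 6 macrophage markers, Adgre1, Csf1r and Cd68 lay above 14.6 in every library. The lowest values of Itgam, Fcgr1 and Mertk were 14.16, 12.20 and 9.07.

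All 5 genes lie in the interferon cluster of chromosome 4 (GRCm38), within 320.4 kb. Each is annotated as a protein-coding gene of 1 exon. Ifnb1 (ENSMUSG00000048806) is at chr4:88522025-88522774 on the minus strand, and Ifna2 (ENSMUSG00000078354) is at chr4:88682881-88683912 on the same strand. On the plus strand follow Ifna6 (ENSMUSG00000101252) at chr4:88827416-88827985, Ifna5 (ENSMUSG00000096682) at chr4:88835525-88836094 and Ifna4 (ENSMUSG00000070904) at chr4:88841861-88842421. How far reads can tell the copies apart was read from the annotated transcripts, cut into stretches of 50 bases. None of the stretches of Ifnb1 occurred in the transcript of another gene. The share was 12.2% for Ifna2 and 6.45% for Ifna4, but 52.2% for Ifna5 and 55.9% for Ifna6, which share most with Ifna1 and Ifna15 respectively. The values of Ifna5 and Ifna6 are therefore uncertain as to which copy they count.

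The promoters are shown because all 5 members were called higher after 1 and 2 h of LPS in the FosKO-labelled libraries. Windows of 300 bases around the RefSeq start (GRCm38.p6) were matched for all 5 members. Printed are 110 bases that end 20 bases before the end of the TATA box (TATAAA in Ifnb1 and TATTTAA in the interferon alpha genes). Capitals mark matches, on either strand, to AANNGAAA, the core that interferon regulatory factors bind, and to the NF-kB letters GGANNTTCC. They run from 5′ to 3′ along the gene at chr4:88522891-88523000 (minus strand) for Ifnb1, chr4:88841641-88841750 (plus) for Ifna4 and chr4:88835302-88835411 (plus) for Ifna5.
Ifnb1: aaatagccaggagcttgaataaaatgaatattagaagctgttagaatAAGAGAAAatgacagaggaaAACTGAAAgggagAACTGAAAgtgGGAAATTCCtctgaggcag
Ifna4: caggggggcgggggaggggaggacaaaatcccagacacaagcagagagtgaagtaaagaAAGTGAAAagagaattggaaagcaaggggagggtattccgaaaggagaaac
Ifna5: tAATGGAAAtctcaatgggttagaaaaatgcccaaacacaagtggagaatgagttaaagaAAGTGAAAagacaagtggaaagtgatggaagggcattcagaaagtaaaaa

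The Ifnb1 stretch held 3 AANNGAAA matches and 1 NF-kB match, none of which overlap. Ifna2 and Ifna4 each held 1 and Ifna5 held 2 AANNGAAA matches, with no NF-kB match. The Ifna2 and Ifna6 stretches are not printed, since each runs into a transcript that one annotation places there, GENCODE for Ifna2 and RefSeq for Ifna6, on whose start the annotations differ. That of Ifna6 has the same base as Ifna5 at 108 of 110 positions. Compared position by position without gaps, Ifna2 and Ifna4 shared 80.9% of bases. The pairs with Ifnb1 shared 34.5% to 37.3%. Pairs of Ifna2 or Ifna4 with Ifna5 or Ifna6 shared 39.1% to 40%. The AAGTGAAA match does not start at the same position in the Ifna4 and Ifna5 stretches, and a shift lowers a share counted without gaps. The 39.1% to 40% is therefore no measure of how alike those copies are when aligned. Over the whole windows, AANNGAAA occurred 3 times in Ifnb1 and Ifna4, 2 times in Ifna2 and Ifna5 and 1 time in Ifna6. The RefSeq start lies before the TATA box in Ifna6 and 45 to 93 bases after its end in the other members. The windows thus do not cover the same part of each promoter. Of 32851 mouse promoter windows of this length, 23.9% held at least 1 match and 1.12% at least 3. The NF-kB letters, found in 4.26% of windows, were in that of Ifnb1 only among the members. The AP-1 letters TGANTCA, present in 7.81% of windows, were in none of the 5, which says only that these letters are not in this stretch. A match is a run of letters, not a site shown to be bound.

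Ifnb1 had the highest values of the members before LPS. In LysM-Cre it read 6.05, 6.04 and 6.14 at 0 h, and in the FosKO-labelled libraries it read 6.10, 6.15 and 6.26, so the groups overlapped. At 0.5 h the LysM-Cre libraries read 6.31, 6.41 and 6.30, against 7.75, 7.89 and 8.45. At 1 h the values were 9.14, 9.11 and 8.73 against 12.11, 12.18 and 12.24. From 0.5 h on, every library labelled FosKO lay above every LysM-Cre library of the same time. At 2 h LysM-Cre reached 9.84, 9.84 and 9.97, while the FosKO-labelled libraries reached 12.96, 12.78 and 12.93. Ordered by level, the groups ran from LysM-Cre at 0 h through 0 h labelled FosKO, LysM-Cre 0.5 h, 0.5 h labelled FosKO, LysM-Cre 1 h, LysM-Cre 2 h and 1 h labelled FosKO to 2 h labelled FosKO. In that order only the neighbouring pair at 0 h overlapped. The FosKO-labelled libraries after 1 h thus stood above LysM-Cre after 2 h, with group means 2.29 apart.

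The interferon alpha genes lay at or near the floor in unstimulated BMDMs of both genotypes. Ifna2 read 3.13, 3.15 and 3.17 in LysM-Cre and 3.19, 3.18 and 3.17 in the FosKO-labelled libraries at 0 h. After 1 h it read 3.92, 3.58 and 3.49 in LysM-Cre and 7.47, 7.82 and 7.93 in the FosKO-labelled libraries. After 2 h it read 4.19, 3.83 and 3.91 against 7.88, 7.80 and 8.05. The 1 h and 2 h FosKO-labelled libraries overlapped for Ifna2, which was so for no other member. At 0.5 h 1 library labelled FosKO, replicate 3, stood at 3.85 while its partners were at 3.29 and 3.35, and the same library was the highest of its group for Ifnb1.

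Ifna4, the interferon alpha gene known to be made early, read 2.68, 2.70 and 2.72 in LysM-Cre at 0 h and still only 3.37, 2.86 and 2.99 after 1 h and 2.93, 3.59 and 3.47 after 2 h. In the FosKO-labelled libraries it read 2.74, 2.73 and 2.72 at 0 h, then 5.70, 6.10 and 6.31 after 1 h and 6.92, 6.74 and 7.07 after 2 h. The gap between the highest LysM-Cre library of any time and the lowest stimulated library labelled FosKO after 1 h was thus larger than the spread within either group. Ifna5 read 2.92, 2.95 and 2.96 in LysM-Cre at 0 h, 3.37, 3.61 and 3.46 after 1 h and 4.04, 3.52 and 3.75 after 2 h. In the FosKO-labelled libraries Ifna5 read 2.99, 2.98 and 3.08 at 0 h, 6.48, 6.58 and 6.65 after 1 h and 7.97, 7.75 and 8.05 after 2 h. It overlapped between genotypes after 0.5 h (2.94 to 2.97 against 2.94 to 3.06) and at neither later time.

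Ifna6 had the lowest deposited values of the members, which near the floor give no ranking of levels. It stayed between 1.97 and 2.28 in all 12 LysM-Cre libraries, whatever the time. In the FosKO-labelled libraries it lay between 2.01 and 2.06 at 0 and 0.5 h, then read 3.56, 4.39 and 4.46 after 1 h and 5.29, 5.14 and 5.33 after 2 h. It passed the filter on low values through those 6 libraries alone, so a difference was built into its being tested. The other 4 members were above the filter in all 24 libraries, but for Ifna2, Ifna4 and Ifna5 the values that passed in unstimulated LysM-Cre were their floors. Among the libraries labelled FosKO after 1 h, replicate 1, which belongs to the low 18S set, was the lowest for all 5 members.

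**Figure D1:**
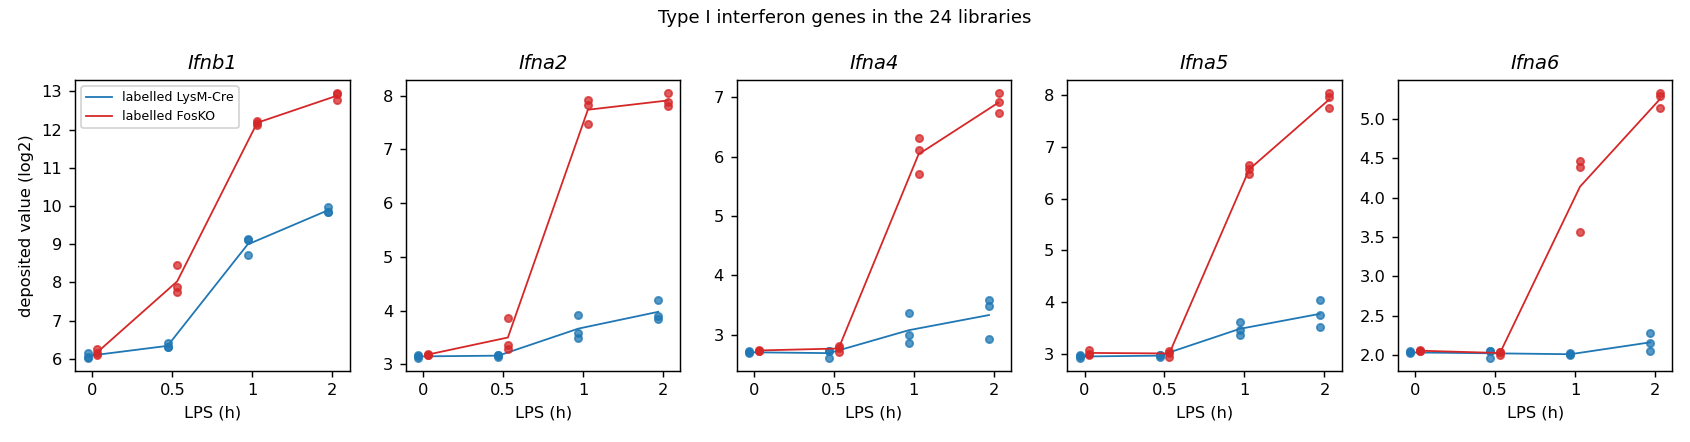
Deposited log2 value (vertical axes, separate scale for each gene) of the 5 type I interferon genes against hours of LPS (0, 0.5, 1 and 2, evenly spaced). Points are single libraries, lines join the means of 3 libraries, blue is LysM-Cre and red is labelled FosKO. The red points rise away from the blue after 1 h for all 5 genes and already after 0.5 h for Ifnb1.

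Genes were set side by side per kilobase of annotated transcript, which the floors make only a rough scale. On it Ifnb1 had the highest level of the members in the FosKO-labelled libraries after 1 and 2 h. At 2 h in the FosKO-labelled libraries the mean log2 level per kilobase was 13.30 for Ifnb1, 8.73 for Ifna5, 7.87 for Ifna2, 7.74 for Ifna4 and 6.06 for Ifna6. In LysM-Cre after 2 h it was 10.30 for Ifnb1 and between 2.97 and 4.58 for the interferon alpha genes, which lie too near their floors to be ranked. The lengths are 750 bases for Ifnb1 and 1032 for Ifna2, while the models of the other 3 hold the coding part alone (561 or 570 bases), so these levels are approximate. The deposited means after 2 h labelled FosKO were 7.92 for Ifna5 and 7.91 for Ifna2, so their order per kilobase rests on the lengths. Which copy the Ifna5 and Ifna6 values count is also uncertain.

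Between genotypes, no member was called at 0 h, 1 was higher in the FosKO-labelled libraries after 0.5 h, and all 5 after 1 h and after 2 h. No member was called lower at any time. A gene was called at a Benjamini-Hochberg adjusted p under 0.05 from limma over 13901 tested genes. Over all tested genes 19.5%, 21.2%, 18% and 24.4% were called higher at 0, 0.5, 1 and 2 h, so the 0.5 h count matches the background share. Ifna6 passed the filter only where it is high, and the floors of Ifna2, Ifna4 and Ifna5 carried them past it, so the counts of members after 1 and 2 h, here and in what follows, are not read against the shares over all genes. At 0 h the differences ran from 0.02 to 0.10 (adjusted p 0.609 or more), and 0 members had an unadjusted p under 0.05. At the floor a lower value could not have been seen for the 4 interferon alpha members, and a small rise could have been missed. Their FosKO-labelled libraries lay above all LysM-Cre libraries at 0 h by at most 0.07 in the means, but so did those of all 11 other interferon genes in the table, also where the difference was as small as 0.0007 (Ifna13), and 24% of all tested genes had that order, so nothing is read from it.

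At 0.5 h Ifnb1 was higher by 1.69 in the FosKO-labelled libraries (SE 0.125, 3.22-fold, limma adjusted p 1.99e-09). This placed it 51st of 13901 when genes are ranked from the largest rise. Within the high 18S set, with 2 libraries a genotype, the Ifnb1 difference was 1.80, and within the low set, with 1 library a genotype, it was 1.45. Ifna2 differed by 0.34 after 0.5 h and was not called (adjusted p 0.0678). That call depended on the setting, since Ifna2 passed without replicate 1 labelled FosKO (0.44, adjusted p 0.0306). Over all alternatives its adjusted p ran from 0.0278 to 0.419. Within the 18S sets the Ifna2 difference was 0.43 and 0.15. Ifna4, Ifna5 and Ifna6 differed by 0.08, 0.04 and 0.00 after 0.5 h, each with a 95% interval that spans 0.

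At 1 h Ifna2 had the largest difference of the members, 4.07 (SE 0.14, 16.9-fold, limma adjusted p 2.27e-14), second among the 13901 genes. Ifnb1 followed with 3.18 (9.09-fold), Ifna5 with 3.09 (8.51-fold), Ifna4 with 2.96 (7.80-fold) and Ifna6 with 2.13 (4.38-fold), at adjusted p of at most 1.4e-09. All 5 ranked between 2nd and 12th. Within the high and the low 18S set after 1 h the difference was 3.07 and 3.19 for Ifnb1, 3.95 and 3.93 for Ifna2, 2.83 and 2.78 for Ifna4, 3.24 and 2.95 for Ifna5, and 2.42 and 1.55 for Ifna6. Each set held 1 library of one genotype and 2 of the other, and both sets gave the same direction for every member.

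At 2 h the order had changed. Ifna5 now had the largest difference, 4.15 (SE 0.11, 17.8-fold, limma adjusted p 1.55e-16), followed by Ifna2 with 3.93 (15.3-fold), Ifna4 with 3.58 (12.0-fold), Ifna6 with 3.09 (8.53-fold) and Ifnb1 with 3.00 (8.02-fold). Their ranks among 13901 genes lay between 2 and 8. The 95% interval of Ifnb1 (2.74 to 3.26) did not reach that of Ifna5 (3.93 to 4.37), although differences between members were not tested. Since the interferon alpha genes start at the floor in LysM-Cre, their fold differences may be understated more than that of Ifnb1. How far any member's difference is understated was not measured. These are bulk measurements, in which fewer cells making a transcript and less RNA per cell cannot be told apart. One fit pools the spread of all groups, and the SD of the interferon alpha genes was near 0.02 at the floor and up to 0.50 after LPS. With only the 2 groups compared in the fit, all 5 members were still called after 1 h and after 2 h.

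**Figure D2:**
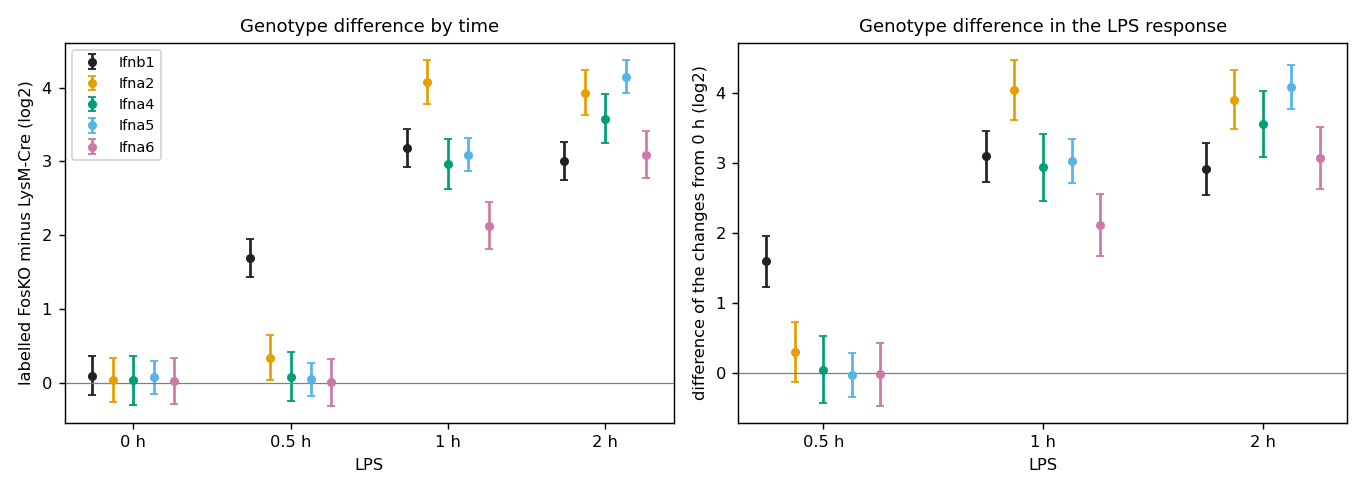
Left, difference between the FosKO-labelled libraries and LysM-Cre (log2, vertical axis) at each time for the 5 members. Right, the genotype difference in the change from 0 h, with points for the limma estimate and bars for its 95% interval. Ifnb1 stands highest after 0.5 h (1.69 left, 1.59 right), and by 2 h Ifna5 (4.15) lies above Ifnb1 (3.00).

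LPS alone, in LysM-Cre, raised Ifnb1 by the largest log2 amount of the members, though the floor may understate the rises of the interferon alpha genes. No member was called by limma after 0.5 h (1 had an unadjusted p under 0.05), 3 were called higher after 1 h (Ifnb1, Ifna2 and Ifna5) and 4 after 2 h (the same and Ifna4), where 5.09%, 19.2% and 30.6% of all genes were called higher. The rise of Ifnb1 was 0.26 after 0.5 h (adjusted p 0.277), 2.92 after 1 h and 3.81 after 2 h, the last a 14.0-fold change. Ifna2 rose by 0.52 and 0.83 and Ifna5 by 0.53 and 0.83 after 1 and 2 h, and Ifna4 rose by 0.63 after 2 h. Ifna6 changed by -0.02 and 0.13, with neither called. The 1 h calls near the threshold moved with single libraries and with the processing. Without LysM-Cre replicate 1 after 1 h, Ifna2 missed it (0.39, adjusted p 0.0562, range over alternatives 0.000267 to 0.0562). Without replicate 2, Ifna4 passed after 1 h (0.48, adjusted p 0.0441, range 0.0116 to 0.342), having missed it in the full fit (0.37, adjusted p 0.0776). In the high 18S set alone Ifna5 missed it after 1 h (0.42, adjusted p 0.0832, range 0.000114 to 0.0832) and Ifna4 passed (0.67, adjusted p 0.0228), as Ifna4 also did with quantile normalisation (0.43, adjusted p 0.0305) and with the 18S set as a term (0.55, adjusted p 0.0116).

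In the FosKO-labelled libraries, LPS raised 1 member after 0.5 h and all 5 after 1 and 2 h, against 4.45%, 17.6% and 32.6% of all genes. Ifnb1 rose by 1.86 after 0.5 h, 6.01 after 1 h and 6.72 after 2 h, the last a 105-fold change (SE 0.125, adjusted p 3.58e-20). At 2 h Ifna5 rose by 4.91, Ifna2 by 4.73, Ifna4 by 4.18 and Ifna6 by 3.20. Of these 4, Ifna6 had no called rise in LysM-Cre at any time.

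Whether LPS acted differently on the members in each genotype was tested as an interaction. At 0.5 h Ifnb1 was 1 of only 2 genes called higher (0.0144% of all genes), with a difference in response of 1.59 (SE 0.18, adjusted p 0.000113). At 1 h all 5 members were called, against 0.489% of genes, with differences from 2.11 for Ifna6 to 4.04 for Ifna2. At 2 h all 5 were called, against 7.27%, with differences from 2.91 for Ifnb1 to 4.08 for Ifna5. The response in LysM-Cre and in the FosKO-labelled libraries can be read side by side for each gene, as 3.81 and 6.72 for Ifnb1, 0.83 and 4.73 for Ifna2, 0.63 and 4.18 for Ifna4, 0.83 and 4.91 for Ifna5, and 0.13 and 3.20 for Ifna6 after 2 h. No alternative setting changed a call of a member for the genotype difference in response at any of the 3 times.

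**Figure D3:**
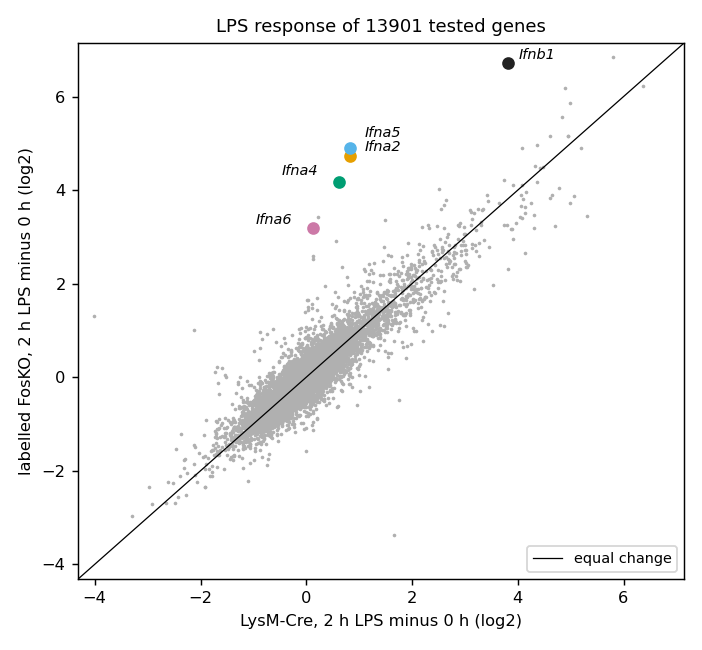
Change from 0 h to 2 h of LPS in LysM-Cre (horizontal axis, log2) and in the FosKO-labelled libraries (vertical axis, log2) for 13901 tested genes (grey points), with the 5 members in colour and the line of equal change. The members lie above the line, with Ifnb1 at 3.81 and 6.72 and the interferon alpha genes at low values on the horizontal axis.

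The rise was also read step by step between times. From 0.5 to 1 h, Ifnb1, Ifna2 and Ifna5 were called higher in LysM-Cre (14% of all genes) and all 5 in the FosKO-labelled libraries (14.5%). Ifnb1 rose by 2.65 and 4.15 in this step, and Ifna2 by 0.50 and 4.24. Without LysM-Cre replicate 1 after 1 h the Ifna2 step was 0.37 and was not called (adjusted p 0.0817, range over alternatives 0.000768 to 0.0817). Without LysM-Cre replicate 2 after 1 h the Ifna4 step, 0.39 in the full fit, was 0.50 and called (adjusted p 0.0483, range 0.0201 to 0.346), and it was called with median centring (0.42, adjusted p 0.0497) and with the 18S set as a term (0.47, adjusted p 0.0201). The Ifna5 step in the high 18S set alone was 0.40 and was not called (adjusted p 0.166, range 0.000364 to 0.166). The genotype difference in this step was called for all 5, against 0.496% of genes, and was 1.50 for Ifnb1 and from 2.13 to 3.74 for the interferon alpha genes.

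From 1 to 2 h the FosKO-labelled libraries gained 0.71 for Ifnb1, 0.87 for Ifna4, 1.35 for Ifna5 and 1.11 for Ifna6, all 4 called (27.2% of all genes), whereas Ifna2 gained 0.17 (SE 0.14, adjusted p 0.344). On the log2 scale, though not for all in fold, every member had most of its 2 h rise by 1 h, with 4.56 of 4.73 for Ifna2, 6.01 of 6.72 for Ifnb1, 3.31 of 4.18 for Ifna4, 3.55 of 4.91 for Ifna5 and 2.09 of 3.20 for Ifna6. Steps of different members were not tested against each other. In LysM-Cre the same step was called for Ifnb1 (0.89) and Ifna5 (0.29), where 27.5% of genes were called higher. The Ifna5 call did not hold without LysM-Cre replicate 1 after 1 h (0.24, adjusted p 0.113), replicate 3 after 1 h (0.28, adjusted p 0.0658) or replicate 1 after 2 h (0.16, adjusted p 0.216), with a range over alternatives of 0.00269 to 0.216. Ifna2 was called in this LysM-Cre step without replicate 1 after 1 h (0.44, adjusted p 0.02, range 0.02 to 0.843), and Ifna4 without replicate 1 after 2 h (0.46, adjusted p 0.0172, range 0.0172 to 0.889). The genotype difference in this step was called for Ifna5 (1.06) and Ifna6 (0.96), against 5.92% of all genes. It was 0.62 for Ifna4, not called (adjusted p 0.0882), but called without LysM-Cre replicate 2 after 2 h (0.75, adjusted p 0.048) or without replicate 3 labelled FosKO after 1 h (0.75, adjusted p 0.0411), with quantile normalisation (0.69, adjusted p 0.047) and with the 18S set as a term (0.70, adjusted p 0.0293), with a range of 0.0293 to 0.248. For Ifnb1 it was -0.18 (95% interval from -0.55, adjusted p 0.609) and for Ifna2 it was -0.14 (adjusted p 0.752).

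The rest of the interferon family gave the setting for these genes. Of 15 other interferon genes listed, 11 were in the table and 6 passed the filter, of which none was called between genotypes at 0 or 0.5 h and 6 were called higher after 1 h and after 2 h. Over all 11 in the table, without the filter, the median difference was 0.81 after 1 h and 1.38 after 2 h, against 0.00 over all 24273 genes at both times. Ifna1 was higher by 3.21 and 3.24 after 1 and 2 h, and Ifna16 was 5.64-fold and 5.59-fold higher. Ifna1 was above the filter in all 24 libraries, though at a floor of 2.54 in LysM-Cre at 0 h, Ifna16 in 8 of which 7 were labelled FosKO, and the other 4 in FosKO-labelled libraries alone, so the count of those that passed says little by itself. Those under the filter were looked at without it. Ifna12 differed by 0.33 and Ifna15 by 0.61 after 2 h and both were then called, Ifna15 also after 1 h (0.24), while Ifna13, a further alpha copy, and Ifnk and Ifnz, the genes of interferon kappa and zeta, differed by -0.06 to 0.05 over the 4 times. In the FosKO-labelled libraries, Ifna1 was 6.13 ± 0.20 after 1 h and 6.00 ± 0.06 after 2 h, and Ifna16 was 4.64 ± 0.12 and 4.73 ± 0.09, so neither rose by more than its spread between those times.

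**Figure D4:**
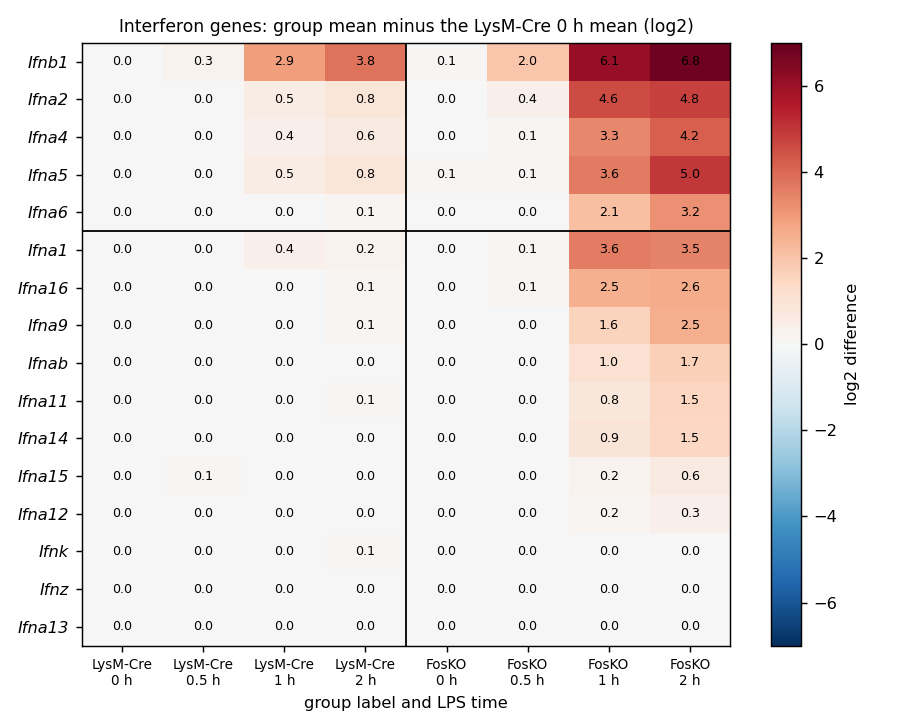
Group mean minus the LysM-Cre 0 h mean of the same gene (log2, number and colour in each cell) for the 5 members (above the line) and 11 other interferon genes in the table (below it), by group label and LPS time. The cells depart from 0 mostly after 1 h and 2 h labelled FosKO, where Ifnb1 reads 6.1 and 6.8, and Ifnk, Ifnz and Ifna13 stay at 0.0 or 0.1.

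The genes named here between TLR4 and IRF3, and Map3k8 of the ERK pathway, differed by at most 0.50. Irf3, whose product TBK1 activates, differed by -0.06 to 0.00 and was called at no time. Tbk1 was higher in the FosKO-labelled libraries by 0.15 to 0.22 at all 4 times. Ticam1 was higher by 0.27 at 0 h and 0.23 after 0.5 h and was not called after 1 or 2 h. Tlr4 was higher by 0.14 after 1 h and 0.49 after 2 h. Map3k8, which encodes TPL-2, was higher by 0.27 to 0.50 at each time. Of the 10 genes listed from TLR4 to TBK1, Map3k8 among them, 5, 5, 5 and 6 were called higher at 0, 0.5, 1 and 2 h and 1, 0, 0 and 1 lower. Over all tested genes the shares were 19.5%, 21.2%, 18% and 24.4% higher and 15.9%, 19.7%, 15.9% and 20.3% lower, and the counts of the following lists stand against the same shares.

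Among 13 genes for factors of the Ifnb1 and interferon alpha promoters, 7, 7, 4 and 8 were called higher and 1, 2, 1 and 1 lower at the 4 times. Irf7, on which most interferon alpha genes depend, was already 2.30-fold higher in the FosKO-labelled libraries before LPS (limma adjusted p 2.78e-07). In these 3 libraries Irf7 lay between 12.71 and 13.13, against 11.65 to 11.83 in LysM-Cre. Its log2 difference was 1.44, 1.21 and 1.05 at 0.5, 1 and 2 h, and its LPS response was not called to differ between genotypes at any time. Irf1, another factor of this family, was higher by 0.61, 0.33 and 0.35 at 0, 0.5 and 2 h and was not called after 1 h (0.22). Jun, an AP-1 subunit, was higher by 0.14, 0.19, 0.57 and 0.80, with a difference in response called after 1 h (0.44) and 2 h (0.66). Atf2, whose product can pair with JUN, was called at no time. Rela, an NF-kB subunit, was higher by 0.14 to 0.37, and Nfkb1 by 0.13 to 0.15 at the 3 times it was called. Prdm1, a repressor known to bind Ifnb1, was called at 0 h alone (0.16).

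Genes that respond to the interferon the members encode were higher in the FosKO-labelled libraries before LPS. Of 18 interferon-stimulated genes, 18, 18, 18 and 17 were called higher at 0, 0.5, 1 and 2 h, with median differences of 1.21, 1.52, 1.33 and 0.91, and none was called lower. Isg15 was higher by 1.24 at 0 h and 0.81 after 2 h, Ifit1 by 1.19 and 1.03, and Cxcl10 by 1.33 and 0.80. Ccl5, higher by 1.96 at 0 h, was not called after 2 h (0.47, adjusted p 0.0644). In the LPS response none of the 18 was called by limma to differ after 0.5 or 1 h (2 had an unadjusted p under 0.05 at each time), and 2 were called lower after 2 h. Over all tested genes 0.101%, 0.727% and 7.7% were called lower in the response after 0.5, 1 and 2 h.

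The receptor side was mixed. Of 8 genes, 6 were called higher at each time, among them Stat2 (0.57 to 1.21), Irf9 (0.23 to 0.28) and Usp18, a brake on the receptor (0.90 to 1.26). The receptor gene Ifnar1 was lower in the FosKO-labelled libraries by -0.17 after 1 h and -0.41 after 2 h, and Ifnar2 was called lower at the same times. Il10, the gene of an anti-inflammatory cytokine, was lower by -0.75, -1.36 and -1.70 at 0.5, 1 and 2 h, at the times when Ifnb1 was higher. Of the 5 genes of the interleukin 10 axis, 2, 2, 1 and 2 were called higher and 0, 2, 1 and 1 lower, too few genes to read against the shares over all genes.

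**Figure D5:**
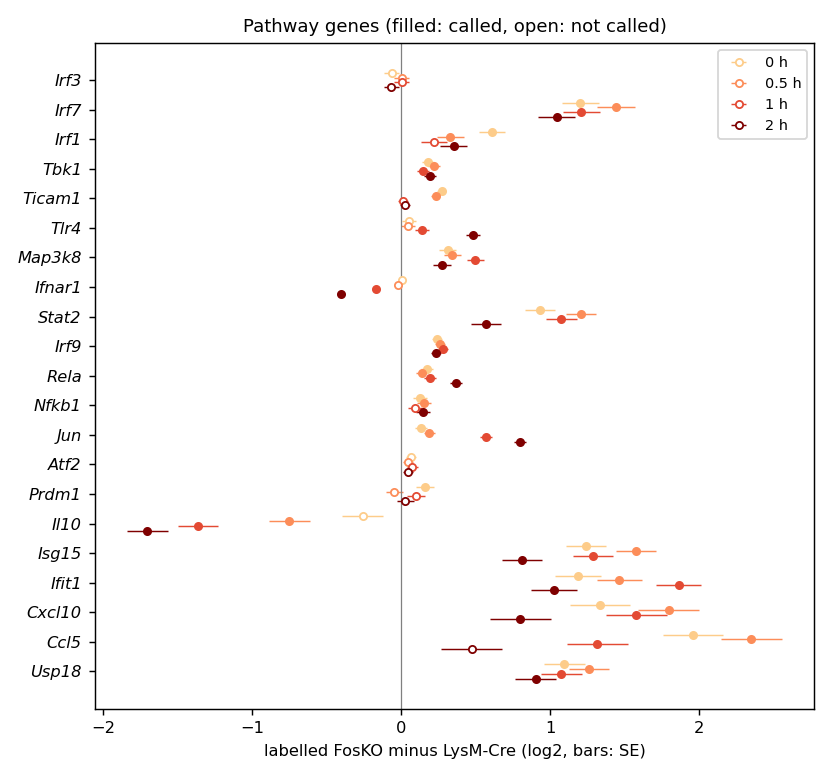
Difference between the FosKO-labelled libraries and LysM-Cre (log2, horizontal axis) for genes of the interferon pathway at 0, 0.5, 1 and 2 h (light to dark). Bars are the SE from limma, filled points were called and open points were not. Irf7, Isg15, Ifit1, Cxcl10, Ccl5 and Usp18 lie near or above 1 already at 0 h, Il10 falls away to -1.70 after 2 h, and Irf3 and Atf2 stay near 0.

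The genes whose pattern over the 24 libraries was most like that of Ifnb1, outside the members, were Ints12 (r = 0.982), Rbm7 (0.975), Serpinb2 (0.973), Ch25h (0.973) and Gm6377 (0.964). These coefficients describe the libraries, which share their groups, so they are not independent points. Ints12 differed between genotypes by only 0.51 after 2 h, and Ch25h, which encodes cholesterol 25-hydroxylase, by 1.26 after 1 h and 1.25 after 2 h, against 3.18 and 3.00 for Ifnb1. The pattern of the mean of the 4 interferon alpha members was most like Ifna16 (r = 0.987), Ifna9 (0.983), Ifna1 (0.983), Ifnab (0.982) and Ifna11 (0.967), all of the same family. Within the members, r was 0.965 to 0.990 between interferon alpha genes and 0.850 to 0.918 between these and Ifnb1. Of the 50-base stretches, 52.2% for Ifna5 and 55.9% for Ifna6 occur in other transcripts, and the interferon alpha genes sit at floors before LPS. The part of shared reads and floors in these r values was not tested.

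Markers of other cells were read beside the members, since plasmacytoid dendritic cells are known for making interferon alpha. Of 6 plasmacytoid dendritic cell markers, Siglech, Ly6d and Pacsin1 were below the filter, with Siglech between 1.01 and 1.58 in all 24 libraries. The summed linear level of the 6, nearly all from Tcf4, did not overlap after 2 h (2970 to 3110 labelled FosKO, 2090 to 2220 in LysM-Cre) and overlapped after 1 h (1940 to 2040 and 1960 to 2020). Of the 3 that passed, Cox6a2 was called higher in the FosKO-labelled libraries at all 4 times and Tcf4 at 0 and 2 h, and their part in the members' differences was not tested. Of 6 conventional dendritic cell markers, 4 passed the filter, and their sum after 2 h was lower in the FosKO-labelled libraries (92.5 to 95.7 against 117 to 129). Of these 4, Zbtb46 alone was called lower after 2 h and Xcr1 alone higher after 1 h, and the median difference after 2 h was 0.09. Neutrophil markers, 3 of 5 above the filter with Ly6g and Elane at the floor, summed to 308 to 326 labelled FosKO and 378 to 414 in LysM-Cre after 2 h, with all 3 called lower, and their part in the result was not tested. None of 6 lymphocyte markers passed the filter. Of 5 fibroblast markers 3 passed, with sums after 2 h of 18.2 to 24.9 labelled FosKO and 18 to 33.1 in LysM-Cre, and Col3a1 alone was called (lower, after 2 h). The macrophage markers, 6 of 6 above the filter, summed to 141000 to 146000 and 135000 to 137000 after 2 h. Of these 6, Cd68, Fcgr1 and Mertk were called higher in the FosKO-labelled libraries at all 4 times, whereas Itgam was called lower at 0, 0.5 and 1 h, Adgre1 at 0 and 1 h and Csf1r at 0 h.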

How the data were processed

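RNA was sequenced from a single end and strand-specifically by the authors (TruSeq libraries, HiSeq 2500), who per the study's methods and processing notes used STAR 2.5.2a, RSEM 1.2.31 and DESeq2 (1.16.1 in the notes) on the GRCm38 mouse build. The deposited values are normalised log2 values per gene and library. The methods name RefSeq genes for counting, whereas the table carries Ensembl identifiers, and the transformation is not given in the sources used here. Genes with 2 to the power of the value of at least 5 in at least 3 libraries were tested (13901 of 24273). The main model was fitted to the 24 libraries together (limma 3.58.1, R 4.3.3). It had a mean for each of the 8 groups, 16 residual degrees of freedom and trended empirical Bayes. From it 19 comparisons were drawn, with p-values adjusted by Benjamini-Hochberg over all tested genes. An exact permutation test of 3 against 3 cannot give a two-sided p below 0.1 and was not used. The fit was tested on simulated data, and the outcome is not reported here. The replicate numbers did not meet the condition for pairing (every pair's correlation over 0.1).

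The members and gene lists were chosen with earlier results of these data known. Named genes are the members, the interferon pathway genes of a written list and the 5 genes most correlated with Ifnb1 and with the mean of the interferon alpha members. For 1 pathway gene the result is not reported here. Sequences are from RefSeq, positions from GENCODE. Alternatives were the filter, a pseudocount of 1, quantile normalisation, median centring, an untrended fit, the 18S sets, replicate blocks, fits of the compared groups alone and leaving out each replicate.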

Additional observations from a re-analysis of the deposited data

Results flagged for a closer look

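Effects that differed between the genotypes by a test of the difference itself were found for all 5 genes. These are differences in the change with LPS, on the log2 scale, labelled FosKO minus LysM-Cre, from limma with adjustment over all genes. For Ifnb1 the LPS response differed by 1.59 after 0.5 h, 3.09 after 1 h and 2.91 after 2 h, and the step from 0.5 to 1 h by 1.50. For Ifna2 the response differed by 4.04 after 1 h and 3.90 after 2 h, and the same step by 3.74. For Ifna4 these values were 2.93, 3.55 and 2.89. Ifna5 had 3.02 after 1 h, 4.08 after 2 h, 3.05 in the step from 0.5 to 1 h and 1.06 in the step from 1 to 2 h. Ifna6 had 2.11, 3.07, 2.13 and 0.96 in the same order, but it passed the filter on low values through FosKO-labelled libraries after 1 and 2 h alone, so these were built in. In all of these the 3 FosKO-labelled libraries changed more than LysM-Cre. Comparisons that use the 0 h or 1 h libraries share them and are not independent. The Dixon test of a single library that stands apart has little power in groups of 3 and was not run.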

How the results depend on the processing

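Over all alternatives, 1715 values of members stayed on their side of the threshold with the same direction, 18 came to pass it, 12 no longer passed it, and none changed sign while called. The count of members called between genotypes after 0.5 h was 1, and was 2 with quantile normalisation, with the 18S set as a term and in the high 18S set only, through Ifna2, and 1 to 2 when single replicates were left out. The count for the step from 1 to 2 h in LysM-Cre was 2, and was 1 without a filter, with quantile normalisation, with the 18S set as a term, in the high 18S set only and with only the groups compared, through Ifna5, and 1 to 2 when single replicates were left out. The cause was not tested. Among the pathway lists, the stricter filter of 20 left 2 of the other interferon genes called higher after 1 h and after 2 h in place of 6. With the replicate number as a replicate block, 5 members were called between genotypes after 1 h and 5 after 2 h, as without it, and a block within each genotype gave 3 in place of 2 for the step from 1 to 2 h in LysM-Cre. Same-numbered libraries deviated together with r over 0.1 in 9 of 18 pairs within FosKO (r up to 0.706), 3 of 18 within LysM-Cre and 6 of 48 between genotypes, so not every pair did, and the numbers were not taken to pair the samples. Depth is unknown, and levels near the floor, as of Ifna6 in LysM-Cre, cannot be ranked.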

Other observations

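The genes around the interferon cluster were looked at after the members' values were known. Within 500 kb of the members, 7 protein-coding genes that are not interferon genes passed the filter. Klhl9, the one that lies between the members, differed between genotypes by 0.01 to 0.06 and was called at no time. Among the 6 flanking genes, Hacd4 was higher in the FosKO-labelled libraries by 0.45 to 0.57 and Mllt3 by 0.45 to 0.65 at all 4 times, and Focad was called after 2 h alone (0.24). Mtap was lower at all 4 times, by -0.14 to -0.27. Cdkn2b was lower at 0, 0.5 and 1 h (-0.59, -0.41 and -0.65) and Cdkn2a at 0 h (-0.48). At 0 h, 2 of the 7 were thus called higher and 3 lower, against 19.5% and 15.9% of all tested genes.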
